A study of Rattus norvegicus with 57 samples.

Results

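The molecular clock was followed in rat kidney cortex after cisplatin through 10 of its genes, Nr1d1, Nr1d2, Per1, Per2, Per3, Dbp, Cry1, Bmal1, Npas2 and Nfil3, out of 11683 genes tested. They were taken by gene symbol, and the probe set that stands for each was chosen by the highest mean log2 signal over all arrays. The array carries 14 probe sets for these symbols, 3 for Nr1d2, 2 each for Per2 and Per3 and 1 for each of the others. Of these, 12 passed the filter on low values, and all 10 genes had at least 1 that did. The animals were male Han Wistar rats of the outbred stock Crl:WI(Han), 8 weeks old, injected once into the peritoneum with saline alone or with cisplatin in saline at 1 or 3 mg/kg. They were killed after 3, 5, 8 or 26 days, which makes 12 groups of dose and day. The design assigned 6 rats to a group. Arrays of 57 rats were analysed here, 5 per group, with 4 in the day 26 controls and 3 at 1 mg/kg on day 5. Each array measured a cortex-enriched piece of kidney from 1 rat, and control rats of the same day received saline. The labels give a light-dark cycle of 12 h but not the hour of death.

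The clock is a transcriptional feedback loop that most cells run with a period of about a day. The activators BMAL1 and CLOCK, or NPAS2 in the place of CLOCK, bind E-boxes and drive the genes of their own inhibitors, the PER and CRY proteins, together with Nr1d1, Nr1d2 and Dbp. NR1D1 and NR1D2, also called REV-ERB alpha and beta, repress Bmal1, Npas2, Cry1 and Nfil3 through ROR elements, while DBP activates and NFIL3 represses genes through D-boxes. In the kidney this loop paces the excretion of sodium, potassium and water, so the level of each transcript depends on the hour at which the tissue is taken.

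Promoter sequences are shown for the members with a motif of the loop close to a transcription start. They come from RefSeq on the rat build GRCr8, and 9 of the 10 members matched with 10 listed starts, Cry1 having no entry. The 250 bases before each start were searched on both strands for the E-box CACGTG, the D-box TTATGNAA, where N is any base, and the ROR elements TAGGTCA or TGGGTCA. Each sequence below runs 5′ to 3′ along the gene's own strand, with the match in capitals. For Nr1d1 the window before the second listed start lies at chr10:84229455-84229704 on the minus strand and holds an E-box 191 bases before that start.
Nr1d1: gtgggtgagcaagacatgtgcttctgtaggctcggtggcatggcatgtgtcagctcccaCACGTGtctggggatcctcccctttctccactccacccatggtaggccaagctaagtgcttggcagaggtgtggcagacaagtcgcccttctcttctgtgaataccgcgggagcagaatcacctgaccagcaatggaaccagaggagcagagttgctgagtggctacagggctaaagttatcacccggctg
For Per2 the window lies at chr9:99496994-99497243 on the minus strand and holds a D-box, TTATGTAA, 192 bases before the start.
Per2: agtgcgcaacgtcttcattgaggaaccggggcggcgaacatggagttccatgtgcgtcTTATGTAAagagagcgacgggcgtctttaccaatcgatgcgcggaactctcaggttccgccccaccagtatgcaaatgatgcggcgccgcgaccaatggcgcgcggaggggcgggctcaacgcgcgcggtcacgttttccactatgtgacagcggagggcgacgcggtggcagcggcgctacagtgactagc
For Bmal1 the window lies at chr1:176766078-176766327 on the plus strand and holds a ROR element 16 bases before the start.
Bmal1: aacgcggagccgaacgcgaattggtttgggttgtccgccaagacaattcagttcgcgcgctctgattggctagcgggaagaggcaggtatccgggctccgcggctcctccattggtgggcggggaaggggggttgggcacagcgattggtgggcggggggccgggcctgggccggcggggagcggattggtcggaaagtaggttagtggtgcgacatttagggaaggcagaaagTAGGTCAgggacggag
The motifs searched do not overlap in these windows, and none of the other 7 windows held a match. Among 33469 RefSeq promoters of the same length, 5.59% held the E-box, 3.28% the D-box and 5.62% a ROR element. A match is a description of the letters, and a window without one says only that these letters are not in it.

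Signals are microarray intensities, deposited already scaled to the same trimmed mean on every array, and array medians ran from 20.3 to 26.1. Differences are given on the log2(signal + 16) scale, on which changes of dim genes are compressed, with the standard error of a limma fit over all 57 arrays. A gene passed where its p-value, adjusted over the 11683 genes, was under 0.05. Within groups, arrays correlated at 0.961 to 0.993. Summed signals of 6 proximal tubule markers ran from 11700 to 16500, while the adrenal genes Cyp11b1, Cyp17a1 and Star were under a signal of 16 on every array. The 3'/5' signal ratio of the actin control probe sets, a measure of RNA integrity, ran from 4.47 to 8.58.

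Taken over all groups, the clock genes varied widely among rats of 1 group, though not equally in every group. The SD within groups, pooled over the 12 groups, was 0.51 on the log2 scale for Per1, 0.44 for Dbp, 0.41 for Nr1d1, 0.34 for Cry1 and 0.33 for Per2. It was 0.32 for Nfil3, 0.29 for Nr1d2, 0.26 for Per3 and Npas2 and 0.25 for Bmal1. These values lay between percentile 90.4, for Bmal1, and percentile 99.2, for Per1, of the same SD over all genes tested. For Dbp the SD of single groups was 0.11 to 0.155 in controls and 0.40 to 0.83 at 3 mg/kg. For Bmal1 it was 0.03 to 0.19 and 0.14 to 0.42. Nr1d1, at 0.22 to 0.49 and 0.31 to 0.61, and Cry1, at 0.17 to 0.57 and 0.22 to 0.54, varied in controls as well. The standard errors rest on the pooled spread. Per3 was dim, under a signal of 16 on 32 of 57 arrays, and Nr1d1 was under 16 on 2. The other 8 members were above 16 on every array.

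**Figure D1:**
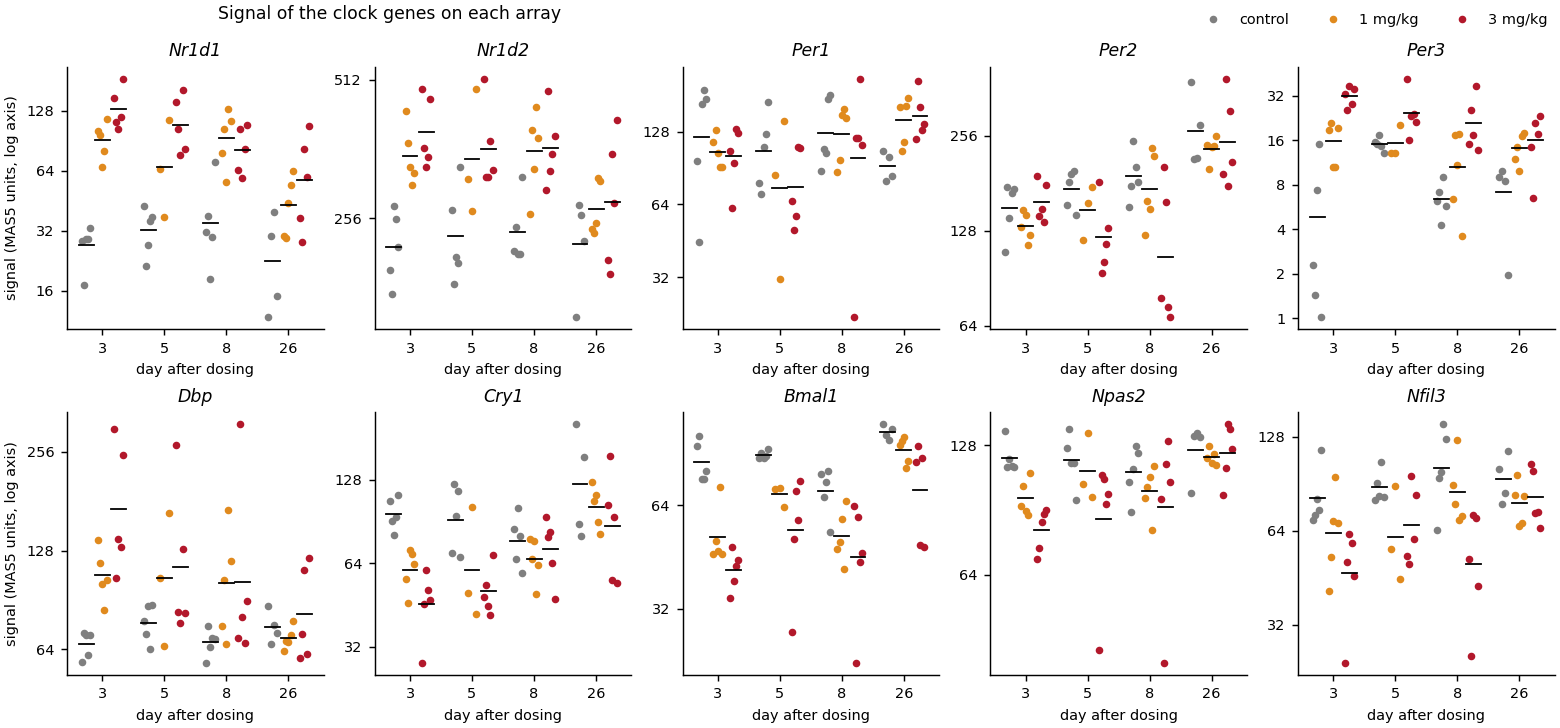
Signal of each clock gene (MAS5 units, log axis) against day after dosing, with a point for each rat, coloured by dose, and a black line at the group mean of log2(signal + 16) turned back to signal. Nr1d1 at 3 mg/kg on day 3 runs from 104 to 185 against 17.1 to 33.0 in the controls, and Bmal1 from 34.3 to 48.5 against 76.2 to 102.

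On day 3 the repressors Nr1d1 and Nr1d2 and the output genes Dbp and Per3 were higher after 3 mg/kg than in controls, and the activators Bmal1 and Npas2, with Cry1 and Nfil3, were lower. These 8 of the 10 members passed the test, 4 higher and 4 lower, against 9.85% of all genes tested. For the same 8 the ranges of the treated and control groups did not overlap, as for 10.2% of all genes. The median difference of the members was -0.09, beside 0.04 for all genes. In bulk tissue, fewer cells of a type and less RNA per cell cannot be told apart. The hour of death is not given for any group, so its part in the differences between doses, here and on later days, was not tested.

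Nr1d1, the REV-ERB alpha repressor, had signals of 28.3, 17.1, 29.1, 29.1 and 33.0 in the 5 controls of day 3. They were 101, 96.7, 66.3, 80.2 and 116 at 1 mg/kg and 148, 112, 104, 119.5 and 185 at 3 mg/kg. Every rat of both cisplatin groups was above every control of that day. All 5 rats at 3 mg/kg and 4 of 5 at 1 mg/kg also exceeded all 19 controls of the study, whose highest signal was 70.9. Nr1d1 rose by 1.77 ± 0.24 at 3 mg/kg (adjusted p = 1.66e-06) and by 1.31 ± 0.24 at 1 mg/kg (adjusted p = 0.00465). The difference between the doses, 0.46 ± 0.24 with a 95% interval of -0.03 to 0.95, did not pass.

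Nr1d2, the related REV-ERB beta repressor, had signals of 197, 176, 273, 256 and 221 in controls, 438, 373, 330.5, 303 and 322 at 1 mg/kg and 489, 364, 330.2, 348 and 465 at 3 mg/kg. Both cisplatin groups again lay above the controls without overlap. It rose by 0.79 ± 0.18 at 3 mg/kg (adjusted p = 0.00262). The difference at 1 mg/kg was 0.62 ± 0.18 and did not pass (adjusted p = 0.26).

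Dbp, a transcription factor that carries the rhythm to D-box genes, had signals of 58.4, 71.8, 70.6, 61.7 and 71.1 in controls, 138, 118, 101, 84.3 and 104 at 1 mg/kg and 301, 106, 139, 131 and 249.7 at 3 mg/kg. Controls were tightly grouped, and the rats at 3 mg/kg were spread widely above them, from 106 to 301. Dbp rose by 1.19 ± 0.26 at 3 mg/kg (adjusted p = 0.00251), and the difference at 1 mg/kg was 0.59 ± 0.26 (adjusted p = 0.769). Nfil3, which competes with DBP for D-boxes as a repressor, went the other way. Its signals were 69.5, 72.1, 80.7, 74.8 and 116 in controls, 41.2, 52.6, 68.6, 95.0 and 67.5 at 1 mg/kg and 24.2, 50.8, 62.5, 58.6 and 45.7 at 3 mg/kg. It fell by 0.63 ± 0.19 at 3 mg/kg (adjusted p = 0.0252), while the groups at 1 mg/kg and 0 overlapped, with a difference of -0.30 ± 0.19. Without the control rat at 116 or the treated rat at 24.2 the call for Nfil3 at 3 mg/kg was lost, with adjusted p of 0.0977 and 0.123, and over its 24 alternatives adjusted p ran from 0.0143 to 0.169.

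Per3, a member of the period family, had signals of 2.29, 1.44, 7.40, 15.1 and 1.02 in controls, near the floor of the array. They were 18.7, 20.9, 10.6, 10.4 and 19.4 at 1 mg/kg and 33.0, 25.4, 37.3, 28.2 and 35.6 at 3 mg/kg. All 5 rats at 3 mg/kg lay above the 19 controls of the study, the highest of which was at 17.3. Per3 rose by 1.19 ± 0.16 at 3 mg/kg (adjusted p = 9.27e-07). The size depends on the offset, from 0.468 with an offset of 64 to 3.27 with none. The difference at 1 mg/kg was 0.60 ± 0.16 (adjusted p = 0.194).

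Bmal1, the activator that the loop cannot run without, had signals of 95.4, 102, 76.5, 76.2 and 80.8 in controls, 46.3, 50.5, 47.0, 72.3 and 46.3 at 1 mg/kg and 34.3, 48.5, 38.7, 42.6 and 44.3 at 3 mg/kg. Every treated rat was below every control of day 3, and all 5 rats at 3 mg/kg were below the 19 controls of the study, the lowest of which was at 53.5. Bmal1 fell by 0.82 ± 0.15 at 3 mg/kg (adjusted p = 0.00028). The difference at 1 mg/kg was -0.58 ± 0.15 (adjusted p = 0.177). Npas2, which can stand in for CLOCK as the partner of BMAL1, had signals of 114 to 138 in controls, 87.8 to 110.0 at 1 mg/kg and 69.7 to 90.2 at 3 mg/kg. The 3 mg/kg group did not overlap the controls, and Npas2 fell by 0.48 ± 0.16 at 3 mg/kg (adjusted p = 0.0389). That call was lost under 10 of 24 alternatives, among them leaving out any 1 of the controls or of rats 1 to 4 at 3 mg/kg, with adjusted p from 0.00299 to 0.0972 over them.

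Cry1, an inhibitor of the activators that the REV-ERB proteins repress, had signals of 107, 91.1, 80.7, 94.4 and 113 in controls, 56.1, 46.1, 71.3, 69.0 and 63.6 at 1 mg/kg and 28.0, 45.6, 60.6, 51.2 and 47.1 at 3 mg/kg. The order of the groups was the reverse of that for Nr1d1, with no overlap between either dose and the controls. Cry1 fell by 0.87 ± 0.20 at 3 mg/kg (adjusted p = 0.00349), and the difference at 1 mg/kg was -0.56 ± 0.20 (adjusted p = 0.541).

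The period genes Per1 and Per2 did not pass on day 3. Per1, which also answers to glucocorticoids, ran over 44.7 to 189.5 in controls and 61.9 to 131 at 3 mg/kg, with a difference of -0.23 ± 0.31 and a 95% interval of -0.84 to 0.38. Per2 ran over 109.9 to 176 and 137 to 191, with a difference of 0.06 ± 0.20 and an interval of -0.34 to 0.45. The groups overlapped for both genes.

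After the lower dose of 1 mg/kg, 1 member passed on day 3, Nr1d1, against 0.0942% of all genes tested. Both doses are compared with the same control rats. The 1 mg/kg group did not overlap the controls for 6 members, against 1.64% of all genes, with Nr1d1, Nr1d2 and Dbp on the high side and Bmal1, Cry1 and Npas2 on the low side. Unadjusted p-values were under 0.05 for 6 members and 6.03% of all genes. Without control rat 4 of day 3, 2 members passed, the second being Per3. Between 3 and 1 mg/kg, Per3 differed by 0.59 ± 0.16 (adjusted p = 0.0288) without overlap, 1 member against 3.12% of all genes tested, and no other member passed. That call was lost without any 1 of 5 rats, the 1 mg/kg rats 3 and 4 and the 3 mg/kg rats 1, 3 and 5.

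An RNA quality measure and the erythroid and distal tubule marker lists differed between 3 mg/kg and the controls on day 3. The actin ratio was 5.89 ± 0.10 (SD, n = 5) at 3 mg/kg, 5.09 ± 0.30 at 1 mg/kg and 4.66 ± 0.25 in controls, with no overlap between 3 mg/kg and the controls. The same ratio for GAPDH ran from 1.348 to 1.453 at 3 mg/kg, 1.282 to 1.377 at 1 mg/kg and 1.295 to 1.42 in controls, which overlapped. With the actin ratio as a covariate, 5 members passed at 3 mg/kg in place of 8, namely Nr1d1 (1.54), Nr1d2 (0.747), Per3 (1.16), Dbp (1.18) and Bmal1 (-0.694). The genes that passed over the whole array fell from 1151 to 499. Cry1 (-0.711, adjusted p = 0.061), Npas2 (-0.534, adjusted p = 0.0751) and Nfil3 (-0.523, adjusted p = 0.169) did not. The summed signal of the 2 erythroid markers measured, of 3 listed, was 506 to 1080 at 3 mg/kg, 1220 to 1710 at 1 mg/kg and 1630 to 2770 in controls. The 3 distal tubule markers, of which Pvalb was under a signal of 16 on every array, summed to 2810 to 3070 at 3 mg/kg and 3130 to 3900 in controls. At 1 mg/kg they summed to 2610 to 3290, which overlapped both. The part of these lists in the differences was not tested.

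**Figure D2:**
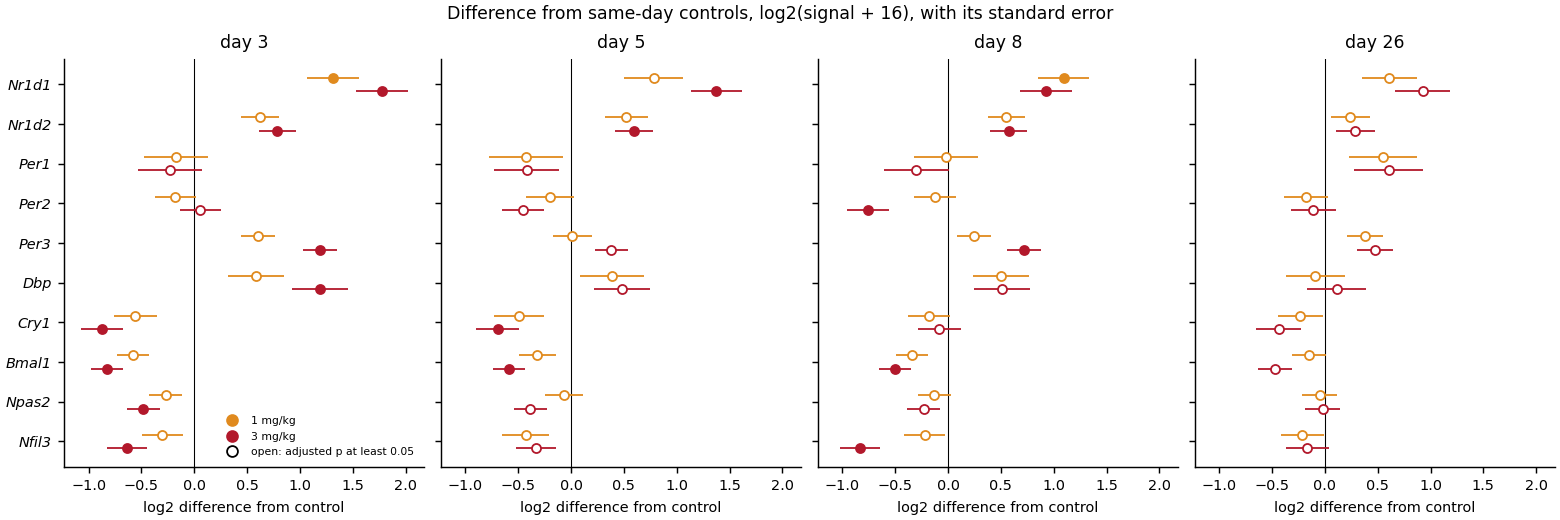
Difference of each clock gene from the same-day controls on the log2(signal + 16) scale, with its standard error, at 1 and 3 mg/kg on days 3, 5, 8 and 26; filled points passed at an adjusted p under 0.05. Nr1d1 is to the right of 0 in all 8 comparisons, from 0.61 to 1.77, and Bmal1 to the left in all 8, from -0.82 to -0.15.

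On day 5 at 3 mg/kg, Nr1d1 and Nr1d2 were higher and Cry1 and Bmal1 lower, 4 of 10 members against 8.8% of all genes tested. Nr1d1 signals were 42.7, 21.2, 27.2, 35.8 and 37.2 in controls and 141, 104, 76.8, 163 and 81.7 at 3 mg/kg. All 5 treated rats were above all 19 controls of the study, and Nr1d1 rose by 1.38 ± 0.24 (adjusted p = 0.000157). Bmal1 signals were 88.0, 90.8, 87.9, 89.2 and 93.5 in controls, the tightest of its groups, and 27.5, 51.2, 70.2, 58.2 and 75.3 at 3 mg/kg. The ranges did not overlap, and Bmal1 fell by 0.59 ± 0.15 (adjusted p = 0.00829). Nr1d1 and Bmal1 were the 2 members without overlap, against 9.11% of all genes.

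Nr1d2 rose by 0.60 ± 0.18 on day 5 (adjusted p = 0.0252) and Cry1 fell by 0.69 ± 0.20 (adjusted p = 0.0219), with ranges that overlapped those of the controls. Without control rat 2 or 4, or without 3 mg/kg rat 1, neither call held. Nr1d2 was also lost without control rat 3 and with its other kept probe set, and Cry1 without 3 mg/kg rat 3. Over all alternatives their adjusted p went up to 0.127 and 0.0755. Dbp was uneven there, at 268, 83.1, 77.0, 129.8 and 82.4, and its difference of 0.48 ± 0.26 did not pass. The same rat, replicate 1, had the highest Dbp and Per3 and the lowest Bmal1 and Npas2 of its group. Without it 1 member passed in place of 4, Nr1d1, and without control rat 2 or control rat 4 of day 5, 2 passed. Over the whole array 1028 genes passed, 547 without that treated rat, and 814 and 823 without those controls. The summed signal of 4 kidney injury markers ran from 2740 to 8240 at 3 mg/kg and from 583 to 1120 in controls. The 3 thick ascending limb markers summed to 4410 to 4660 and 4950 to 5550, and the 3 distal tubule markers to 2720 to 3360 and 3500 to 4090. The part of these lists in the differences was not tested. With the 3 rats at 1 mg/kg on day 5, 0 members passed in limma, against 0.0171% of all genes tested, and 3 had an unadjusted p under 0.05, against 3.22% of all genes. Nr1d1 was at 65.0, 37.5 and 115 there, a difference of 0.78 ± 0.28. Between 3 and 1 mg/kg on day 5, 0 members passed in limma against 3.97% of all genes, and 2 had an unadjusted p under 0.05, near the 18.9% of all genes that did.

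On day 8 at 3 mg/kg, 6 of 10 members passed, 3 higher and 3 lower, where 37.3% of all genes tested did. Nr1d1 signals were 31.3, 37.9, 18.2, 29.9 and 70.9 in controls and 64.1, 103, 58.7, 82.0 and 109 at 3 mg/kg, and the ranges overlapped through the control at 70.9. Nr1d1 rose by 0.93 ± 0.24 (adjusted p = 0.00223) and Nr1d2 by 0.57 ± 0.18 (adjusted p = 0.00886). Per3 was at 6.18, 7.11, 4.29, 9.02 and 5.71 in controls and at 15.0, 25.6, 17.3, 37.4 and 13.8 at 3 mg/kg, the 1 member whose groups did not overlap on that day, against 16.4% of all genes. It rose by 0.72 ± 0.16 (adjusted p = 0.000334).

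Nfil3 fell by 0.83 ± 0.19 on day 8 at 3 mg/kg (adjusted p = 0.000495), with 25.4 to 72.0 against 64.2 to 140.0 in controls. Bmal1 fell by 0.50 ± 0.15 (adjusted p = 0.00762). That call was lost without 3 mg/kg rat 2 of that day, in which Bmal1 was at 22.3, and when the compared groups alone were fitted. Per2, which had not passed on days 3 and 5, was at 78.3, 203, 158, 73.5 and 68.2 against 152, 178, 247, 204 and 184 in controls. In 3 of 5 treated rats it lay below all 19 controls of the study. It fell by 0.76 ± 0.20 (adjusted p = 0.00197), while its other kept probe set gave -0.184 with adjusted p = 0.473. Cry1, lower on days 3 and 5, was at 47.4 to 94.3 against 59.3 to 101, a difference of -0.08 ± 0.20 with a 95% interval of -0.49 to 0.32.

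Other features of the tissue moved with the same groups. The 4 kidney injury markers summed to 5760 to 11400 at 3 mg/kg and 622 to 1130 in controls, and the 3 thick ascending limb markers to 39.5 to 2150 and 3900 to 5340. The 3 distal tubule markers summed to 616 to 2070 and 3120 to 3690, and the 4 macrophage markers to 188 to 287 and 110.0 to 146. Among these markers Pvalb and Cd163 were under a signal of 16 on every array. The part of these shifts in the clock gene differences was not tested.

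The lower dose on day 8 gave 1 member that passed, against 0.522% of all genes tested. It was Nr1d1, at 78.1, 103, 56.3, 130.2 and 114, which rose by 1.09 ± 0.24 (adjusted p = 0.0182). The kidney injury markers summed to 1680 to 7900 in that group, above the controls, and the macrophage markers to 144 to 258, which overlapped them, and their part was not tested. Without control rat 3 of day 8 no member passed. Between 3 and 1 mg/kg, 3 members passed where 23.1% of all genes did. Per3 was higher by 0.48 ± 0.16 at 3 mg/kg, and Per2 and Nfil3 fell by 0.63 ± 0.20 and 0.61 ± 0.19, with adjusted p of 0.0243, 0.0147 and 0.0149. The ranges overlapped for all 3. The calls were lost under 7 of 23 alternatives for Per3, 6 of 25 for Per2 and 4 of 24 for Nfil3. Those for Per2 included its other kept probe set. Without 1 mg/kg rat 5, or without 3 mg/kg rat 2 or 4, 1 member passed.

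By day 26, 0 members passed in limma at 3 mg/kg, against 0.753% of all genes tested, and 4 had an unadjusted p under 0.05, against 15.9% of all genes. The 1 mg/kg group gave 0, against 0.00856% of all genes, and 2 had an unadjusted p under 0.05, against 6.64% of all genes. Between the doses 0 passed, where 0.0% of all genes did, and 1 member had an unadjusted p under 0.05, among 1197 genes that did. Nr1d1 was at 11.8, 30.1, 39.8 and 15.0 in controls, 30.1, 29.2, 44.1, 54.5 and 63.9 at 1 mg/kg and 37.1, 27.9, 82.2, 59.5 and 107 at 3 mg/kg. The groups overlapped, with differences of 0.61 ± 0.26 and 0.93 ± 0.26 (adjusted p = 0.064 at 3 mg/kg). Without control rat 3 or 3 mg/kg rat 2 of that day, 1 member passed at 3 mg/kg, Nr1d1.

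Some day 26 groups did not overlap although the differences did not pass, 2 members at 3 mg/kg against 5.99% of all genes and 2 at 1 mg/kg against 2.83%. Bmal1 was at 48.4 to 94.9 at 3 mg/kg and 99.2 to 110.0 in controls, a difference of -0.48 ± 0.16 (adjusted p = 0.116). Per1 was at 119.5 to 207 at 3 mg/kg, 107.0 to 177 at 1 mg/kg and 80.05 to 106.9 in controls, with differences of 0.60 ± 0.32 and 0.55 ± 0.32. Per3 at 1 mg/kg was at 9.91 to 17.9 against 1.97 to 9.86. The 4 macrophage markers summed to 131 to 193 at 3 mg/kg and 109 to 125 in controls, and the 3 lymphocyte markers measured, of 5 listed, to 36.4 to 73.1 and 25.7 to 34.4, and their part in these values was not tested.

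The remaining levels show how the repressors' targets and the period genes ran at the lower dose and between days. Bmal1 was at 71.6, 72.0 and 63.2 at 1 mg/kg on day 5, below all controls of that day (these groups did not overlap for 3.17% of all genes), and its difference of -0.32 ± 0.17 did not pass. On day 8 it was at 47.9, 49.9, 58.5, 41.8 and 65.7 at 1 mg/kg and 63.8, 22.3, 59.3, 43.7 and 46.4 at 3 mg/kg, and the lower dose overlapped the controls. Cry1 was at 42.2 to 102 at 1 mg/kg and 41.6 to 68.7 at 3 mg/kg on day 5, against 67.7 to 124 in controls. On day 26 it was at 81.9 to 126, 54.4 to 156 and 80.2 to 203 in the same order, all overlapping. Nr1d2 at 3 mg/kg was at 314 to 514 on day 5 against 184 to 331 in controls, at 295 to 484 on day 8 against 214 to 315, and at 194 to 419 on day 26 against 156 to 274.

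Per1, the member with the largest pooled SD, overlapped its controls on days 5 and 8. On day 5 it ran over 70.5 to 171 in controls and 50.4 to 111 at 3 mg/kg, and on day 8 over 88.2 to 181 and 21.9 to 212. Its differences of -0.42 ± 0.31 and -0.30 ± 0.31 did not pass, with 95% intervals of -1.03 to 0.19 and -0.91 to 0.32. Per2 was at 93.8 to 182 on day 5 against 144 to 199 in controls, a difference of -0.46 ± 0.20 (adjusted p = 0.143). On day 26 it was at 178 to 389 against 217 to 379, a difference of -0.11 ± 0.21.

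Control rats were compared between days, since saline was their only treatment and the hour of death is not given. From day 3 to day 5, 1 of 10 members passed, against 4.45% of all genes: Per3 rose by 0.58 ± 0.16 (adjusted p = 0.0273), with 5.45 ± 5.97 (SD, n = 5) on day 3 and 15.1 ± 1.53 on day 5. That call was lost without control rat 1, 2 or 5 of day 3, or without rat 1 or 3 of day 5. From day 3 to day 26, Per2 rose by 0.75 ± 0.21 (adjusted p = 0.0429), from 109.9, 176, 140.5, 169 and 173 to 379, 217, 217 and 278 with no overlap, 1 member against 2.03% of all genes that passed and 5.57% whose groups did not overlap. Leaving out any 1 of 7 rats ended that call, rats 1, 3, 4 and 5 of day 3 and rats 1, 2 and 4 of day 26. In all it was lost under 16 of 24 alternatives, the other kept probe set of Per2 among them. Over these the difference went down to 0.304 and limma adjusted p up to 0.584.

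Between the other pairs of days 0 members passed in limma. The shares of all genes that passed were 0.659% from day 3 to day 8, 4.78% from day 5 to day 8, 2.76% from day 5 to day 26 and 1.28% from day 8 to day 26. Unadjusted p-values were under 0.05 for 0, 1, 2 and 3 members in that order, and for 12.8%, 21.1%, 18.9% and 15.6% of all genes. Groups did not overlap for 0, 2, 3 and 1 members in that order, and for 3.69%, 6.87%, 8.24% and 6.41% of all genes. Per3 on day 5, at 13.05 to 17.3, lay above day 8 (4.29 to 9.02) and day 26 (1.97 to 9.86). Bmal1 on day 5, at 87.9 to 93.5, lay above day 8 and below day 26. Per2 on day 5, at 144 to 199, lay below day 26, at 217 to 379. Bmal1 was at 78.9, 67.6, 74.9, 80.6 and 53.5 on day 8 and at 110.0, 103, 99.2 and 107 on day 26, which did not overlap, as for 6.41% of all genes, a difference of 0.48 ± 0.16 (adjusted p = 0.119). Control means of Nr1d1 ran from 24.2 ± 13.2 (SD, n = 4) on day 26 to 37.6 ± 19.9 (SD, n = 5) on day 8. Its largest difference between control days, -0.40 with a 95% interval of -0.93 to 0.12, did not pass.

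The 12 groups could be ordered by their mean log2 level of Nr1d1. The 4 control groups were lowest, followed by 1 and 3 mg/kg on day 26, and 3 mg/kg on day 5 and on day 3 were highest, at 113 ± 37.5 and 134 ± 33.3 (SD, n = 5). No neighbours in that order were further apart than the SD of either group. For Bmal1 the lowest groups were 3 mg/kg on day 3 at 41.7 ± 5.42 and 3 mg/kg on day 8 at 47.1 ± 16.2, and the highest the controls of day 26 at 105 ± 4.69. Those controls and the 1 mg/kg group of day 26, at 92.7 ± 8.17, were the 1 neighbouring pair further apart than both of their SDs, by 0.15 on the log2 scale, and their ranges overlapped.

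The change of the 3 mg/kg difference from one day to the next was tested directly. From day 3 to day 5, 1 member passed, against 1.52% of all genes. The difference of Per3 fell by 0.81 ± 0.23 (adjusted p = 0.0494), from 1.19 to 0.38. Its mean log2 level rose from 4.383 to 4.958 in controls and fell from 5.576 to 5.339 at 3 mg/kg, so more of the change was in the controls. The call for Per3 held under 5 of 33 alternatives. Leaving out most single rats ended it, the exceptions being control rat 4 of day 3 and 3 mg/kg rat 1 of day 5. From day 5 to day 8, 0 members passed in limma against 16.3% of all genes, and 1 had an unadjusted p under 0.05, against 30.7% of all genes. From day 8 to day 26, 0 passed against 15.0% of all genes, and 3 had an unadjusted p under 0.05, near the 28.1% of all genes that did. Without control rat 1 or 3 mg/kg rat 2 of day 8, 1 member passed in that last comparison, and without 3 mg/kg rat 3 of day 8, 2 did. For Nr1d1 the change from day 3 to day 5 was -0.40 ± 0.35 and from day 5 to day 8 -0.45 ± 0.35, and the 95% interval of its change from day 8 to day 26 was -0.72 to 0.71.

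The rats of a group also differed from each other in a coordinated way. Each array's deviation from the mean of its own group was taken, which removes dose and day, and the deviations of Nr1d1 were set against those of the 9 other members over 57 arrays. Nr1d2 followed Nr1d1 closely, with a Pearson's r of 0.82 and a Spearman's rho of 0.826. Its permutation p was 1e-05, the smallest that 100000 permutations within groups can give, and 4.5e-05 adjusted over the 9 pairs. The r was 0.753 within the 19 control arrays and 0.848 within the 38 cisplatin arrays. Without the 2 arrays farthest from the median of Nr1d1, 3 mg/kg rat 2 of day 26 and control rat 5 of day 8, it was 0.799.

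Cry1 ran opposite to Nr1d1, with r = -0.775 and rho = -0.753 (permutation p = 1e-05, adjusted 4.5e-05), at -0.751 in controls and -0.79 after cisplatin. It was -0.753 without the 2 farthest arrays. Bmal1 also ran opposite, with r = -0.579 and rho = -0.597 (permutation p = 3e-05, adjusted 6.7e-05). It was at -0.681 in controls and -0.579 after cisplatin, and at -0.53 without the 2 arrays. For both genes the sign was the same in rats given saline alone.

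**Figure D3:**
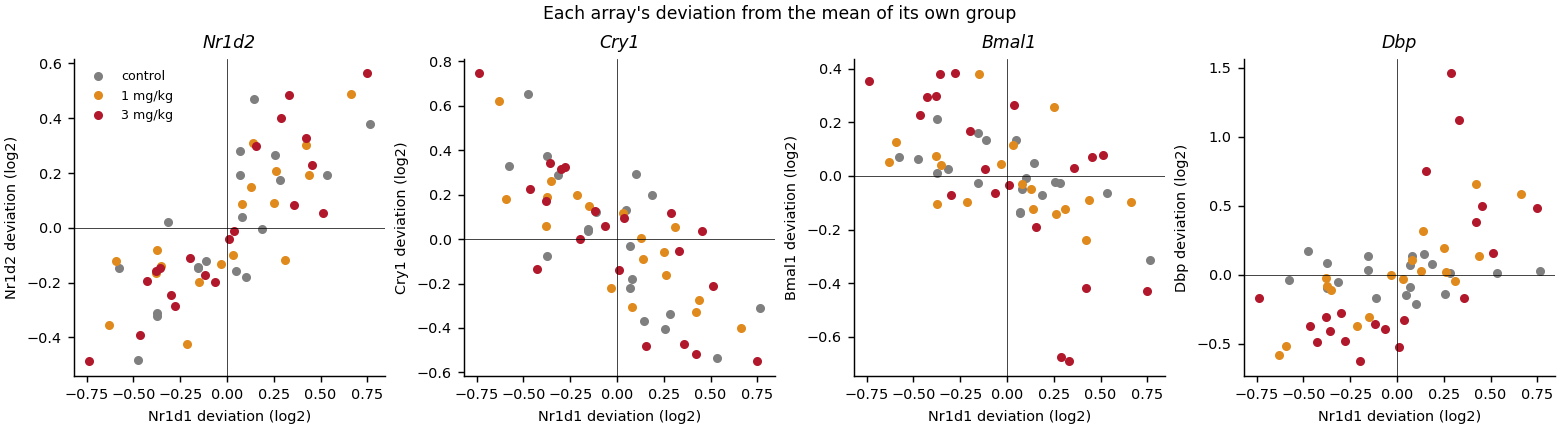
Deviation of each of 57 arrays from the mean of its own group, on the log2(signal + 16) scale, for Nr1d2, Cry1, Bmal1 and Dbp against Nr1d1, coloured by dose. The points rise for Nr1d2 (r = 0.82) and fall for Cry1 (r = -0.775) and Bmal1 (r = -0.579), with control rats along the same slopes, while for Dbp the control rats lie flat (r = -0.048).

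Dbp rose with Nr1d1 over all arrays, with r = 0.56 and rho = 0.623 (permutation p = 2e-05, adjusted 6e-05; 0.589 without the 2 arrays). Within cisplatin arrays r was 0.676 and within controls -0.048, and the difference between these was not tested. Nfil3 ran opposite, with r = -0.5 and rho = -0.563 (permutation p = 0.00043, adjusted 0.00077; -0.558 without the 2 arrays), at -0.69 after cisplatin and 0.046 in controls. Per3, with r = 0.426 and rho = 0.461 (permutation p = 0.0024, adjusted 0.0036), gave 0.403 without the 2 arrays, 0.184 in controls and 0.516 after cisplatin. Per1, with r = 0.363 and rho = 0.356 (permutation p = 0.0088, adjusted 0.011), gave 0.398, 0.425 and 0.336 in the same order. Per2 (r = -0.079, rho = -0.025, permutation p = 0.63, adjusted 0.63) and Npas2 (r = -0.119, rho = -0.043, permutation p = 0.44, adjusted 0.49) did not pass, and gave 0.007 and -0.17 without those arrays. For Per2 r was -0.585 in controls and 0.087 after cisplatin, and for Npas2 0.175 and -0.196, and these differences were not tested. The labels name no batch, so no value within batches could be given.

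**Figure D4:**
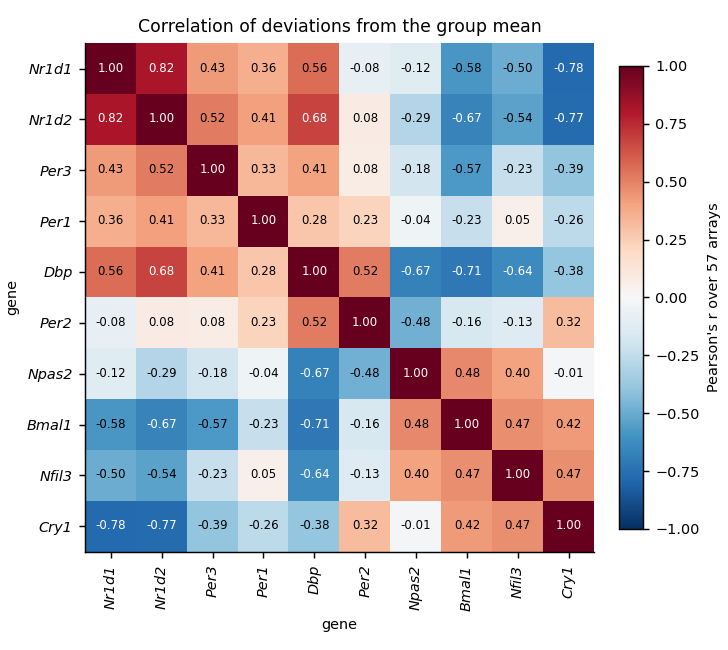
Pearson's r between the deviations of each pair of clock genes from their group means, over 57 arrays, on a colour scale from -1 to 1. Nr1d1 and Nr1d2 stand together at 0.82, both run against Cry1 at -0.775 and -0.767, and Dbp runs against Bmal1 at -0.715 and Npas2 at -0.672.

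Among the remaining pairs, given as a description, Dbp ran against both activators, at r = -0.715 with Bmal1 and -0.672 with Npas2, and with Nr1d2 at 0.678. Bmal1 and Npas2 ran together at 0.479. Per2 stood apart from the other period genes, at 0.226 with Per1 and 0.078 with Per3, and was closest to Dbp at 0.518. A pair of rats at 3 mg/kg combined a high Dbp with the lowest Bmal1 and Npas2 of all arrays. They weigh on the r values among these genes, which were not computed without them. In 3 mg/kg rat 2 of day 8 Dbp was at 310.5, Bmal1 at 22.3, Npas2 at 39.9 and Nfil3 at 25.4, and in 3 mg/kg rat 1 of day 5 Dbp was at 268 with Bmal1 at 27.5 and Npas2 at 42.65.

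Outside the 10 members, the genes whose deviations were most like those of Nr1d1 over the 57 arrays were Vps9d1 (r = 0.604), Aipl1 (0.541), Araf (0.539), Klf11 (0.521) and Tns2 (0.52). The most opposite were Rnf125 (-0.621), Cct2 (-0.554), Il34 (-0.533), Pdia6 (-0.521) and Acmsd (-0.519). Nr1d2 at 0.82 was closer to Nr1d1 than any of these. For Bmal1 the most alike were Plekha1 (0.721), Agpat3 (0.596), Lnx2 (0.583), Ppard (0.582) and Rnf125 (0.581). Rnf125 stood on both lists, opposite to Nr1d1 and alongside Bmal1.

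Of 18 other genes of the clock that were listed, 12 were tested. At 3 mg/kg 2 of the 12 rose and 0 fell on day 3, against 9.85% of all genes, with a median of 0.09 beside 0.04 for all genes. Cry2, the second cryptochrome, rose by 0.27 ± 0.09 (adjusted p = 0.0475) where Cry1 fell, and Csnk1e, a kinase that phosphorylates PER proteins, rose by 0.38 ± 0.10 (adjusted p = 0.00754). Tef and Hlf, the D-box activators related to Dbp, were at 0.34 ± 0.12 and -0.20 ± 0.19 and did not pass. Clock, the partner of Bmal1, was at -0.13 ± 0.05, and Rora, the activator that competes with the REV-ERB proteins, at -0.33 ± 0.11, and neither passed.

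On day 5 at 3 mg/kg 0 of these 12 passed, against 8.8% of all genes. On day 8, 3 rose and 1 fell, a share below the 37.3% of all genes that passed. They were Csnk1e by 0.45 ± 0.10, Csnk1d, its sister kinase, by 0.41 ± 0.07 and Timeless by 0.34 ± 0.10, while Clock fell by 0.28 ± 0.05 (adjusted p = 5.42e-06). On day 26 Csnk1e rose by 0.41 ± 0.10 (adjusted p = 0.0379) and 11 others did not pass, where 0.753% of all genes did. No day gave any of the 12 at 1 mg/kg, where 0 passed in limma. The shares of all genes there were 0.0942%, 0.0171%, 0.522% and 0.00856% on days 3, 5, 8 and 26. Csnk1e was not level in controls either, and rose by 0.37 ± 0.10 from day 3 to day 5 and fell by 0.34 ± 0.10 from day 5 to day 8.

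**Figure D5:**
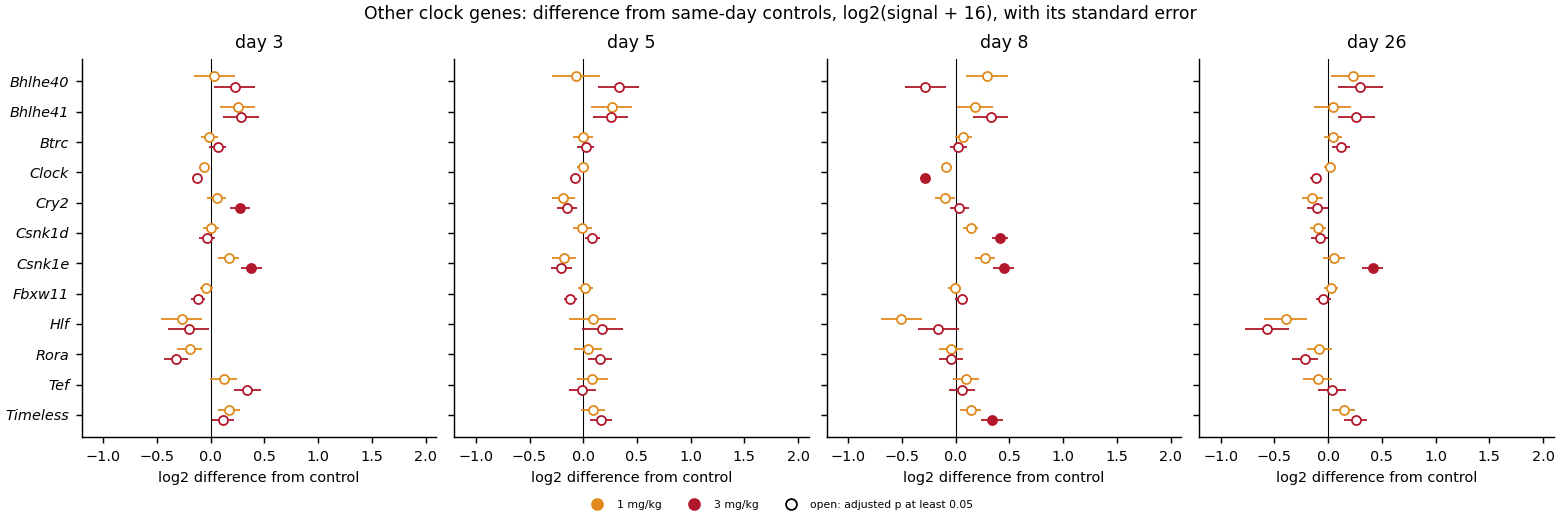
Difference of 12 other clock genes from the same-day controls on the log2(signal + 16) scale, with its standard error, at 1 and 3 mg/kg on days 3, 5, 8 and 26; filled points passed at an adjusted p under 0.05. Filled points are at 3 mg/kg alone, among them Cry2 at 0.27 and Csnk1e at 0.38 on day 3 and Clock at -0.28 on day 8.

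Genes known as rhythmic outputs in several tissues were counted as well, 14 of 15 listed being tested. At 3 mg/kg on day 3, 1 rose and 1 fell, against 9.85% of all genes, with a median of -0.09. Tns2, a focal adhesion protein, rose by 0.34 ± 0.08 (adjusted p = 0.0051), and Leo1, a subunit of the PAF1 elongation complex, fell by 0.24 ± 0.07 (adjusted p = 0.0156). On day 5, 1 rose, against 8.8% of all genes, Tns2, by 0.30 ± 0.08. On day 8, 3 rose and 1 fell, a share below the 37.3% of all genes. They were Tspan4 by 0.80 ± 0.17, Nampt, the enzyme of NAD salvage, by 0.55 ± 0.09 and Coq10b by 0.50 ± 0.17, while the deubiquitinase Usp2 fell by 0.68 ± 0.24. On day 26, and at 1 mg/kg on any day, 0 of the 14 passed in limma. The shares of all genes were 0.753% at 3 mg/kg on day 26, and 0.0942%, 0.0171%, 0.522% and 0.00856% at 1 mg/kg on days 3, 5, 8 and 26.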

How the data were processed

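RNA from 57 rat kidneys was measured on Affymetrix Rat 230 2.0 arrays, and groups, doses and days were taken from the labels. The deposited intensity values are MAS5 signals, per the submitters' processing notes, with no version given in the sources used here. After trimming 2% at either end, every array had a mean of 99.99, so the signals had been scaled. Of 31099 probe sets, 57 controls were left out. The rest were named from the platform annotation, updated to the RefSeq gene table: 20826 had 1 symbol, 436 several and 9780 none.

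Probe sets above the 40th percentile of their array on at least 3 arrays were kept, 21829 in all, and each gene was represented by the one with the highest mean log2(signal + 16). limma 3.58.1 in R 4.3.3 fitted 12 group means over all 57 arrays, with trended moderated variances, two-sided tests and Benjamini-Hochberg adjustment within each of 21 contrasts. The code was tested on simulated data. Deviations from group means were correlated with 100000 permutations of arrays within groups. Promoters came from RefSeq (GRCr8). The number of arrays limits the precision.

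The 10 members and the gene lists were chosen with earlier results of these data known, so their counts are no independent support. All 10 members are named whatever their result. Genes named from each other list are among the up to 4 past the threshold with the largest change in a contrast, and not every contrast is described. Other values are given for genes of the loop. For Nr1d1 the 5 genes of highest and lowest correlation are named, and for Bmal1 the 5 highest. Alternatives covered the offset, scaling, filter, probe sets, model, actin ratio and each rat left out.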

Additional observations from a re-analysis of the deposited data

Results flagged for a closer look

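In 9 of 110 combinations of a gene and a group of 4 to 5 rats, 1 rat lay far from the others by Dixon's criterion. Chance gives about 1 in 20, and the combinations share rats and are not independent. Dbp in 3 mg/kg rat 2 of day 8 was at 310.5, with the others between 66.8 and 89.9. Npas2 was lowest in the same rat, at 39.9, with the others between 95.9 and 131. In 3 mg/kg rat 1 of day 5 Npas2 was at 42.65 (others 93.5 to 109). In the day 26 controls Npas2 was at 98.8 in rat 1 (others 133 to 137), and in the day 3 controls at 138 in rat 1 (others 114 to 119). Nr1d1 was at 17.1 in control rat 2 of day 3 (others 28.3 to 33.0). Nfil3 was at 116 in control rat 5 of day 3 (others 69.5 to 80.7). Bmal1 was at 72.3 in 1 mg/kg rat 4 of day 3 (others 46.3 to 50.5). Per3 was at 1.97 in control rat 4 of day 26 (others 8.48 to 9.86).

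The difference of Per3 between 3 mg/kg and controls changed between days by a test of the change itself, with -0.812 on the log2 scale from day 3 to day 5 (limma adjusted p = 0.0494). More of that change was a rise in the controls, from a mean of 4.383 to 4.958, than a fall at 3 mg/kg, from 5.576 to 5.339.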

How the results depend on the processing

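Of 27 differences of the clock genes that passed, 11 passed under every alternative run and none changed sign. Among the alternatives that leave out 1 rat, 2226 differences of single genes kept their side of the threshold, 67 lost it and 7 gained it. Under the other alternatives 2892 kept it, 38 lost it, 7 gained it and 24 that never passed moved in size, mostly Per3 with another offset and Per2 with its other probe set. Counts of members that passed moved as follows. With the actin ratio as a covariate, 5 passed at 3 mg/kg on day 3, and 0 between the doses on day 3 and in the change of the 3 mg/kg difference from day 3 to day 5. With no offset, 2 passed at 1 mg/kg on day 3, 1 at 3 mg/kg on day 26, and 0 between the doses on day 3 and between control days 3 and 26. With an offset of 64, 0 passed between control days 3 and 5 and in the change from day 3 to day 5. Quantile normalization gave 0 in those, between the doses on day 3 and between control days 3 and 26. The filter at the 60th percentile gave 0 between the doses on day 3, between control days 3 and 5 and in the change from day 3 to day 5, since it left Per3 out. No filter, or averaging the probe sets of a gene, gave 0 between control days 3 and 26 and in the change from day 3 to day 5. Centring on the 75th percentile, or no trend, gave 0 in that change, and robust moderation 0 between control days 3 and 26. Fitting the compared groups alone gave 0 at 1 mg/kg on day 8, 0 between the doses on day 8, 0 between control days 3 and 26 and in the change from day 3 to day 5, and 1 between control days 5 and 8. Array weights gave 2 at 1 mg/kg on day 3, 1 between the doses on day 8, 1 between control days 5 and 8 and 1 in the change from day 8 to day 26. Apart from the stricter filter, the cause was not tested.

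Leaving out 1 rat at a time gave 6 to 8 members at 3 mg/kg on day 3, 1 to 4 on day 5, 5 to 6 on day 8 and 0 to 1 on day 26. At 1 mg/kg it gave 1 to 2 on day 3 and 0 to 1 on day 8, and between the doses 0 to 1 on day 3 and 1 to 3 on day 8. It gave 0 to 1 between control days 3 and 5, 0 to 1 between control days 3 and 26, 0 to 1 in the change from day 3 to day 5 and 0 to 2 in that from day 8 to day 26. With the replicate block 8 members passed at 3 mg/kg on day 3, 4 on day 5 and 6 on day 8, and 0 between control days 3 and 26 and in the change from day 3 to day 5. The numbers do not pair the rats: deviations of same-numbered rats correlated at -0.168 to 0.259, over 0.1 in 6 of 36 pairs. In control arrays alone, r with Nr1d1 was -0.048 for Dbp and 0.046 for Nfil3, with the sign turned. For Npas2, which did not pass, it was 0.175 against -0.119 over all arrays, and for Per2 -0.585 against -0.079. Signal over background limits Per3, under 16 on 32 arrays, whose differences follow the offset.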

Other observations

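Genes that answer to other daily or acute signals were counted in the same fit, in which 9.85% of all genes passed at 3 mg/kg on day 3 and 37.3% did so by day 8. Of 9 immediate early genes tested of 10 listed, the group that cells switch on within minutes of a stimulus, 4 rose and 0 fell at 3 mg/kg on day 3, among them Egr1 by 1.92 ± 0.35 and Fos by 1.52 ± 0.40. Their median difference was 0.66, beside 0.04 for all genes. By day 5, where 8.8% of all genes passed, 6 rose, and day 8 also gave 6. Day 26 gave 5, where 0.753% of all genes passed, with Egr1 higher by 1.97 ± 0.37. The lower dose gave 6 that rose on day 8, against 0.522% of all genes, and 0 on the other days. Its shares of all genes for days 3, 5 and 26 were 0.0942%, 0.0171% and 0.00856%. The temperature responsive genes Rbm3 and Cirbp, which encode cold-induced RNA-binding proteins, rose by 1.36 ± 0.17 and 0.66 ± 0.13 at 3 mg/kg on day 8, and Dnajb1, a heat shock protein, fell by 0.35 ± 0.09. These were 3 of 4 genes tested of 6 listed, and 0 passed at either dose on days 3, 5 and 26. Among 9 glucocorticoid responsive genes tested of 10 listed, Sgk1, a kinase of sodium transport, fell by 1.00 ± 0.22 on day 3 and Cdkn1c rose by 0.39 ± 0.11. On day 8 Sgk1 fell by 1.01 ± 0.22 and Tsc22d3 by 0.69 ± 0.18, while Cebpd rose by 0.86 ± 0.21. On day 5, 2 rose and 0 fell, beside 8.8% of all genes. By day 26 Dusp1 alone rose, by 0.97 ± 0.23, beside 0.753% of all genes. At 1 mg/kg 1 rose on day 8, Cebpd, by 0.87 ± 0.21, beside 0.522% of all genes.

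Of 11 listed transport and water balance genes described as clock regulated, 10 were tested. At 3 mg/kg on day 3, 1 rose and 1 fell, against 9.85% of all genes. They were the tight junction gene Cldn4, by 0.96 ± 0.22, and the taurine transporter Slc6a6, which fell by 0.59 ± 0.10. On day 8, 4 rose and 3 fell, against 37.3% of all genes. Among them Cldn4 rose by 1.93 ± 0.22 and Fxyd5 by 0.92 ± 0.12. The thiazide-sensitive cotransporter Slc12a3 fell by 1.93 ± 0.25 and the sodium-proton exchanger Slc9a3 by 1.10 ± 0.14. On day 5, 2 rose and 0 fell, against 8.8% of all genes, namely Cldn4 by 0.72 ± 0.22 and Fxyd5 by 0.38 ± 0.12. At 1 mg/kg on day 8 Cldn4 rose by 0.98 ± 0.22 (limma adjusted p = 0.0182), where 0.522% of all genes passed. On day 26, 0 passed in limma at either dose, against 0.753% of all genes at 3 mg/kg and 0.00856% at 1 mg/kg.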
